A study of Mus musculus with 12 samples.

Results

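Dense clusters of open chromatin were followed in hepatocytes of mice with and without the iron regulator FBXL5, on a standard diet and on a diet that causes bile duct injury. The clusters were chosen from the 3 floxed standard livers alone: peaks whose fold enrichment reached 8 and that overlapped such a peak in all 3 lists were merged, regions less than 12500 bp apart were stitched, and units of 5 or more regions were kept. Fold enrichment is the height of a peak over its local background. The rule gave 121 clusters of 20880 stitched units. They held 672 of 27619 open regions, on all 19 autosomes and none on X.

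Open chromatin was mapped with ATAC-seq, which uses a transposase to cut and tag DNA left free by nucleosomes. Hepatocytes were freed from liver by collagenase perfusion in 2 steps, and 1 library was made per mouse, 3 mice per group. The 4 groups were Alb-Cre/FBXL5F/F mice on a 0.1% DDC diet (deleted DDC), Alb-Cre/FBXL5F/F mice on a standard diet (deleted standard), FBXL5F/F mice on the 0.1% DDC diet (floxed DDC) and FBXL5F/F mice on the standard diet (floxed standard), each diet given for 2 weeks. The sources used here do not give age, sex or strain. All mice carry floxed Fbxl5 alleles. Cre is driven by albumin regulatory sequence, so deletion is directed to hepatocytes, and the Cre transgene and the loss of FBXL5 cannot be told apart. FBXL5 is the substrate receptor of a ubiquitin ligase that removes iron regulatory proteins when iron is plentiful. DDC is a porphyrin-forming compound used to produce cholestatic liver disease in mice.

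Open regions outside promoters often hold enhancers, stretches where transcription factors bind and raise the activity of a gene at a distance. In liver these factors include the HNF, FOXA, C/EBP and nuclear receptor families. Genes that define a cell type are often flanked by several enhancers close together. Accessibility alone does not show that a region is an enhancer, and promoters of active genes are open too. No histone mark or enhancer assay was used here, so the units are called dense clusters of open regions.

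The largest cluster was a repeat array. It held 15 regions over 48.9 kb of chromosome 4 (chr4:88757428-88806284, mm10), across the interferon zeta genes, a mouse family of type I interferons that includes Ifnz and copies named Gm13272, Gm13275, Gm13283 and others. Of its 14 steps from one region to the next, 13 lay within 100 bp of their median of 2927 bp. In the other clusters the median step was 8291 bp and the shortest cluster median was 5670.5 bp. Of 15 promoter windows read at or near the array, 12 were near copies of others, in sets of 4, 3 and 5 genes. Within these sets at least 297, 298 and 299 of 300 bases were the same, and 3 windows (Gm13271, Gm13275 and Gm13286) had no near copy. No region of the array lay over Gm13271, and 8 of the 15 regions overlapped a promoter window. The 250 bases before the start of Gm13272 and Gm13283 are printed to show how little separates 2 copies that were counted as separate open regions. Sequences are from RefSeq, GRCm38.p6, and capitals mark the only bases that differ.
Gm13272, chr4:88779600-88779849, + strand: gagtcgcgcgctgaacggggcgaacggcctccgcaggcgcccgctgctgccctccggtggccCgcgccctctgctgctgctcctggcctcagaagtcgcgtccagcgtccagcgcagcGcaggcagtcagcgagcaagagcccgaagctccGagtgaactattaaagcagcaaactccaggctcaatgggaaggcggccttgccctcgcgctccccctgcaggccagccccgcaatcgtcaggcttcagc
Gm13283, chr4:88760524-88760773, + strand: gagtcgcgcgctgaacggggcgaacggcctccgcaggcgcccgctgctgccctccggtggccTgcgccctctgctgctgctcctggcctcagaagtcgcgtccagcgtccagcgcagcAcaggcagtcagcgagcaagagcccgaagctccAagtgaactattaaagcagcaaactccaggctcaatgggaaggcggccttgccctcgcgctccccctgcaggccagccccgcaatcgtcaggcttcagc

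Reads from such copies cannot be assigned surely to one copy, and the sources used here do not say how reads with several matches were placed. The array's fold enrichments over all regions and libraries lay between 8.72 and 20.6, with a median of 12, and its regions were 419 to 594 bp wide. Its cluster value, explained with the comparisons, was 3.59, 3.56 and 3.67 in deleted DDC livers, 4.04, 3.61 and 3.91 in deleted standard livers, 3.54, 3.36 and 3.49 in floxed DDC livers and 3.65, 3.65 and 3.57 in floxed standard livers. Deleted standard livers 1 and 3 were the highest of the 12. The array passed the rule in each of the 4 groups.

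**Figure D1:**
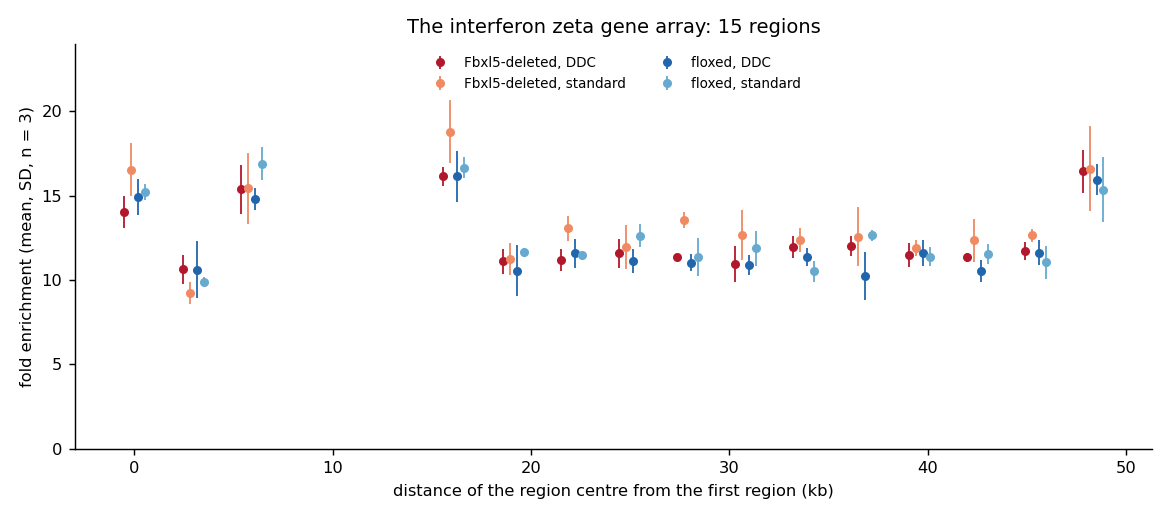
Fold enrichment (y, linear, mean and SD of 3 livers) of the 15 regions of the interferon zeta array against the distance of each region's centre from the first region in kb (x), for deleted DDC, deleted standard, floxed DDC and floxed standard livers. The regions recur at an even step of about 2927 bp with 1 wider gap.

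Spans over all 121 ran from 21.8 to 71.1 kb (median 35.4 kb), and open regions filled 6.81% to 15.9% of a span (median 10.6%). Most were small: 84 held 5 regions, 20 held 6, 12 held 7, 3 held 8, 1 held 9 and 1 held 15. Just outside the rule were 278 units of 4 regions. The longest units of 5 regions lay at Tut1, Fgd6 and near E2f6 (47.2, 46.2 and 45.99 kb), and the longest of 4 at Proser2, Cpsf4 and Cops7b (38.2, 37.8 and 36.9 kb). Over the 672 member regions, the lowest of the 3 floxed standard fold enrichments had a median of 11.1, and in 134 regions (19.9%) it was under 9. These values chose the members.

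After the array, most of the largest clusters lay over genes. A cluster of 9 regions over 71.1 kb of chromosome 9 spanned Oxsr1, a kinase that controls ion cotransporters, with Myd88, the adaptor of Toll-like receptors, Acaa1a, a peroxisomal thiolase of fatty acid oxidation, and Xylb. Clusters of 8 regions lay in Mical3, an enzyme that oxidises actin, across Sec16a, an organiser of export sites on the endoplasmic reticulum, and at Pecr, a peroxisomal reductase of fatty acid elongation. Those of 7 regions included Deaf1, Tlcd3b, Stat5b, the transcription factor that carries the growth hormone signal in liver, Adamts4, Azin2, and stretches 34867 and 13653 bp from Tnrc6c and Gucy2d, outside any protein-coding gene. The Adamts4 cluster also covered Ppox, which makes protoporphyrin, the precursor of heme. Oxsr1, Mical3, Pecr, Tlcd3b and Adamts4 passed the rule in all 4 groups, Sec16a, Deaf1 and Stat5b in 3, Azin2 in 2, and the clusters near Tnrc6c and Gucy2d in floxed standard livers alone.

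Few listed hepatocyte genes lay inside a dense cluster, and few genes of any kind did. Of 21631 protein-coding genes, 235 (1.09%) overlapped one and 496 (2.29%) lay within 50 kb. Among 26 hepatocyte transcription factors, 1 (3.85%) overlapped, Nfia, and with Onecut1 and Nr1i3 3 (11.5%) lay within 50 kb. None of 70 plasma protein genes overlapped, and 3 (4.29%), Alb, Afp and Apoa2, lay within 50 kb. Cytochromes P450 (0 of 52) and conjugating enzymes (0 of 40) had no member within 50 kb either. The counts are too small to set one list apart from the share over all genes.

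A few metabolic genes were covered. Scarb1, the receptor that takes up cholesterol from high-density lipoprotein, and Acaa1a were the 2 of 46 lipid genes inside a cluster, with Fabp1 and Pnpla2 among those within 50 kb. Amt, of the glycine cleavage system, and Ahcy, which breaks down S-adenosylhomocysteine, were the 2 of 31 amino acid and urea cycle genes. Atp8b1, a phospholipid flippase of the canalicular membrane, was 1 of 24 bile acid and phospholipid transport genes, with Slc22a7 within 50 kb. Ppox was the 1 of 43 iron and heme genes inside a cluster, and Tfrc, the transferrin receptor, lay 5714 bp from the Tnk2 cluster. Stat5b was the 1 of 28 glucose metabolism genes, and of 49 circadian and stress genes none was inside and Jund lay within 50 kb.

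Promoters did not account for most of the open regions. On the chromosomes with promoter windows in the RefSeq table, 127 of 643 member regions (19.8%) overlapped a window of 250 bases before to 50 after a protein-coding start, against 24.4% of 26059 regions outside the clusters. Of 116 clusters there, 48 had no promoter region and 37 had 1, while in 12 at least 50% of regions were at promoters. All 5 regions of the cluster at Fam214b, Pigo, Stoml2 and Unc13b were promoters, an example chosen after its values were seen. Among all 121 clusters, 25 overlapped no protein-coding gene, 42 overlapped 1, 41 overlapped 2 to 4 and 13 overlapped 5 or more. Promoter regions of members were wider than the others, with medians of 931 and 630 bp.

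Promoters inside the clusters had the base makeup of other open promoters. The 250 bases before the start held a median of 60.8% G and C over 166 member promoters, 60.8% over 7818 promoters at open regions outside the clusters, and 55.6% over all 21045. With both strands searched, GGGCGGGG, a match for SP and KLF factors, was in 29.5% of member promoters, 32.0% of open promoters outside and 21.8% of all. CCGGAAGT, a match for ETS factors, was in 7.23%, 7.67% and 3.83% of the same 3 sets. Liver factor matches were rare in each set: CAAAGTCC (HNF4) in 1.20%, 1.30% and 1.26%, TGTTTAC (FOXA) in 0.602%, 2.06% and 2.64%, and TTNNGCAA (C/EBP) in 5.42%, 7.01% and 9.18%. The HNF1 motif was in 0, 0 and 0.0238%, TGANTCA (AP-1) in 3.61%, 3.57% and 6.17%, and TATAAA in 5.42%, 4.68% and 11.7%. Windows share sequence among gene copies, and a match is not a bound site.

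The member regions were listed in every liver, as nearly all strong regions were: all 672 had a peak in each of the 12 libraries, and outside the clusters 99.9% to 100% had one. Lists that reach far below a fold enrichment of 8 make this share uninformative. The share that kept a fold enrichment of at least 8 was 94.8%, 91.5% and 89.3% in deleted DDC livers, 76.2%, 94.8% and 89.0% in deleted standard livers, and 91.7%, 95.5% and 92.7% in floxed DDC livers. It is 100% in floxed standard livers by the rule. Regions outside the clusters had shares of 92.4%, 92.0% and 89.6% in deleted DDC, 72.3%, 95.7% and 87.7% in deleted standard, and 92.0%, 95.2% and 92.2% in floxed DDC livers. Liver by liver the shares inside and outside lay close together, and the lowest of both was in deleted standard liver 1.

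Deleted standard livers 1 and 3 stood apart as libraries. Their lists held 261938 and 260515 peaks, the other 10 lists 137004 to 202874. Strong peaks, of fold enrichment 8 or more, numbered 22318 and 29799 in those livers and 33992 to 44972 in the others. Read counts are not in the files used here, so depth is unknown. Peaks lay at the promoters of all 8 hepatocyte markers with a window in every library, and at none of 3 lymphocyte markers. Of 4 macrophage markers, peaks lay at 1 to 2 in deleted DDC, 0 to 1 in deleted standard, 2 in floxed DDC and 0 to 1 in floxed standard livers, none of fold enrichment 8 or more. Their summed fold enrichment was 2.62 to 5.79 in deleted DDC, 0 to 3.02 in deleted standard, 5.97 to 6.20 in floxed DDC and 0 to 2.65 in floxed standard livers, and Marco had no peak in any library. Cholangiocyte markers were at 1 of 4 in deleted DDC and deleted standard, 1 to 2 in floxed DDC and 0 to 1 in floxed standard livers. Endothelial markers were at 0 to 2, 0 to 1, 1 and 1 of 4 in the same order of groups, and stellate markers at 2, 2 to 3, 2 to 4 and 2 of 4. The summed fold enrichment of stellate markers was 14.3 to 17.6 in deleted DDC, 17.2 to 25.4 in deleted standard, 18.5 to 26.8 in floxed DDC and 19.6 to 23.0 in floxed standard livers, and the part of these cells in the comparisons was not tested.

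The same rule run on the other groups gave unequal numbers of clusters. It gave 141 in deleted DDC, 37 in deleted standard and 199 in floxed DDC livers, against the 121 of floxed standard livers. Of the 121, 64 (52.9%) were met by a deleted DDC cluster, 31 (25.6%) by a deleted standard and 71 (58.7%) by a floxed DDC cluster. Those were 45.4%, 83.8% and 35.7% of the clusters of each of these groups. Altogether 24 members were clusters in all 4 groups and 38 in floxed standard livers alone. Of 37 members with 6 or more regions, 14 (37.8%) were in all groups, and of 84 with 5 regions, 10 (11.9%) were.

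These numbers had the same order as the mean count of strong peaks per list, which was 36575 in deleted DDC, 29316 in deleted standard, 40410 in floxed DDC and 35548 in floxed standard livers. With the 22318 strongest peaks of every list in place of the threshold of 8, a choice made after the data were seen, the rule gave 4 clusters in deleted DDC, 15 in deleted standard, 14 in floxed DDC and 12 in floxed standard livers. Deleted standard livers had the fewest clusters by the threshold and the most by equal numbers. No loss or gain of clusters between groups is drawn from either count.

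**Figure D2:**
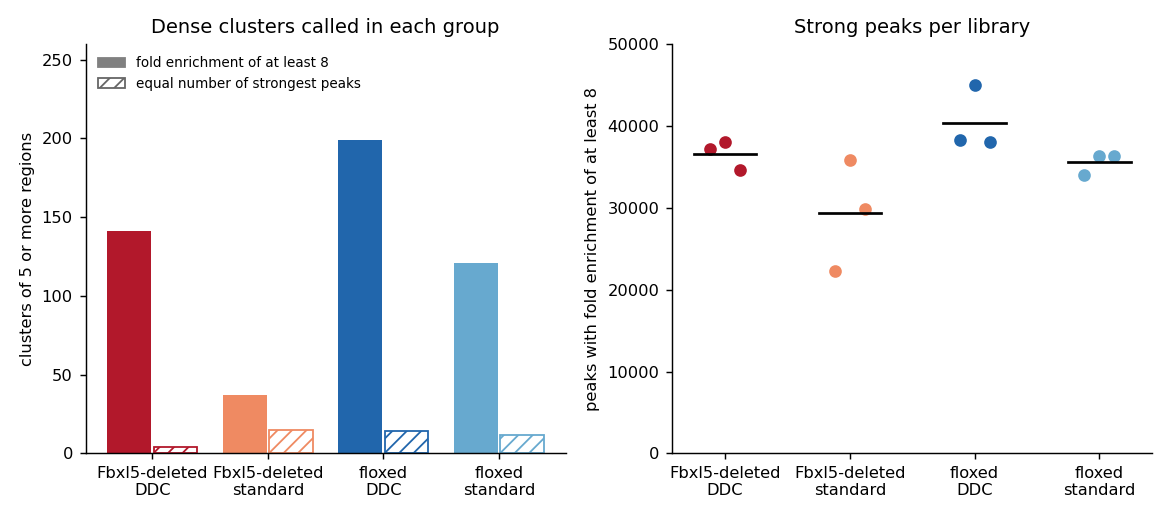
Left, number of clusters of 5 or more regions (y) in deleted DDC, deleted standard, floxed DDC and floxed standard livers, with peaks chosen by a fold enrichment of at least 8 (filled) or as the 22318 strongest of each list (hatched). Right, peaks of fold enrichment 8 or more per library (points) with the group mean (line). The order of the groups differs between the filled and the hatched bars.

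For comparisons between groups, the 137004 strongest peaks of each list were ranked and every rank was given the same log2 fold enrichment in all 12 libraries. A region takes the highest value of its peaks, and 1.27 where none was kept. A cluster's value is the mean over its regions. The comparison of DDC with the standard diet in deleted livers asks whether cholestatic injury changes the clusters in hepatocytes without FBXL5. The comparison of deleted with floxed livers on DDC asks what FBXL5 changes during the injury. Both were tested with limma on the 9 libraries that the rule did not use. Contrasts with the floxed standard livers carry no test, since the rule lifts their values.

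No whole cluster was called in either comparison when all 20880 units were fitted together. Their median value was 3.61, 3.56 and 3.61 in deleted DDC, 3.68, 3.67 and 3.69 in deleted standard, 3.59, 3.56 and 3.61 in floxed DDC, and 3.65, 3.65 and 3.64 in floxed standard livers. Deleted DDC and floxed DDC livers lay below both standard groups. Between deleted DDC and deleted standard livers, limma with Benjamini-Hochberg adjustment over all 20880 units called 0 of 121 clusters higher and 0 lower, where 1.03% of all units were called higher and 0.45% lower. The lowest adjusted p of a cluster was 0.139, and 5 had an unadjusted p under 0.05. The fit shares its estimate of spread among all units, of which 16098 held 1 region, so the SE of a cluster leans on theirs. Cluster differences ran from -0.36 to 0.15 on the log2 scale with SEs of 0.095 to 0.148, and their median was -0.08 against -0.05 over all units. In all, 93 of 121 lay below 0, and so did 12265 of all 20880 units.

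For loss of FBXL5 on the DDC diet, deleted DDC minus floxed DDC livers had a median of 0.03 over the clusters and 0.01 over all units, a range of -0.21 to 0.19, and 0 of 121 calls by limma, where 0.0% of all units were called. No cluster had an unadjusted p under 0.05. As a description, floxed DDC minus floxed standard livers had a median of -0.09 over the clusters and -0.07 over all units. Of the clusters 103 of 121 lay below 0, and of all units 13450 of 20880. As above, such shares of clusters and of units are not like measures. Deleted standard minus floxed standard livers had 0.02 and -0.02, with 75 of 121 clusters and 9625 of 20880 units above 0. These comparisons share libraries with those tested, and the 2 diet differences do not share any with each other. With fold enrichments not replaced by ranks, the diet median in deleted livers was 0.09 over the clusters and 0.11 over all units, so the direction of the shift depends on the scale. In bulk hepatocytes, fewer cells of a type and less open chromatin per cell cannot be told apart.

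**Figure D3:**
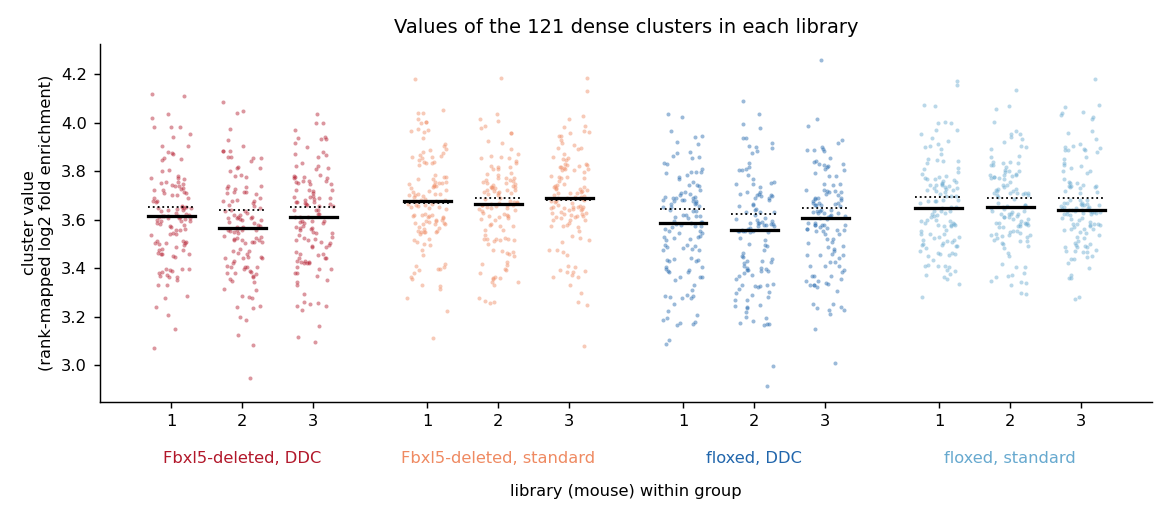
Value of each of the 121 clusters (points; mean rank-mapped log2 fold enrichment over its regions, y) in each of 12 libraries (x), for deleted DDC, deleted standard, floxed DDC and floxed standard livers. Solid lines are medians of the clusters and dotted lines medians of the units outside them; the DDC medians lie between 3.56 and 3.61 and the standard ones between 3.64 and 3.69.

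The cluster with the lowest adjusted p lay near Atoh8, a helix-loop-helix transcription factor, and the one with the lowest difference in Cd82, a tetraspanin of the cell surface; both were picked after their values were seen. The cluster near Atoh8 had 3.57, 3.46 and 3.50 in deleted DDC livers, 3.94, 3.77 and 3.81 in deleted standard livers, 3.74, 3.58 and 3.64 in floxed DDC livers and 3.64, 3.59 and 3.74 in floxed standard livers. Its deleted DDC values lay below those of all 9 other livers, and its difference from deleted standard livers was not called (-0.33, SE 0.11, limma adjusted p = 0.139). In Cd82 the values were 3.36, 3.19 and 3.33 in deleted DDC livers, 3.76, 3.52 and 3.69 in deleted standard livers, 3.09, 3.24 and 3.32 in floxed DDC livers and 3.50, 3.58 and 3.49 in floxed standard livers. Both DDC groups lay below both standard groups there, and the difference in deleted livers was not called (-0.36, SE 0.13, limma adjusted p = 0.165). A fit on the 1370 units of 3 or more regions was added after the data were seen. It called 4 members lower on DDC in deleted livers, in Cd82, near Atoh8, in Adam11 and in Capn2 (-0.36, -0.33, -0.30 and -0.24). None was called higher, and of these units 5.18% were called lower and 1.24% higher. The SEs of the 4 members were 0.10, 0.08, 0.09 and 0.07 there, against 0.13, 0.11, 0.11 and 0.10 with all units.

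Clusters at liver genes gave no call. The Nfia cluster, 6 regions in the body of a transcription factor gene, had 3.62, 3.67 and 3.67 in deleted DDC livers, 3.83, 3.74 and 3.65 in deleted standard livers, 3.59, 3.51 and 3.61 in floxed DDC livers and 3.58, 3.71 and 3.66 in floxed standard livers, and passed the rule in all 4 groups. Its diet difference in deleted livers was -0.09, SE 0.10, limma adjusted p = 0.690. Scarb1 had 3.36, 3.60 and 3.40 in deleted DDC livers, 3.66, 3.69 and 3.62 in deleted standard livers, 3.40, 3.33 and 3.47 in floxed DDC livers and 3.62, 3.59 and 3.60 in floxed standard livers. Both DDC groups of Scarb1 lay below both standard groups apart from deleted DDC liver 2, which lay between floxed standard livers 2 and 3, and the difference in deleted livers was -0.20, SE 0.12, limma adjusted p = 0.368. At Atp8b1, on chromosome 18, the difference was -0.16, SE 0.11, limma adjusted p = 0.468, and at Oxsr1 it was -0.06, SE 0.12, limma adjusted p = 0.825.

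Before the albumin gene, 7 regions ran from 55.4 to 10.8 kb ahead of the annotated Alb start (chr5:90405181-90450350). Albumin is the main plasma protein made by hepatocytes. The cluster as a whole had 3.70, 3.68 and 3.75 in deleted DDC livers, 3.91, 3.76 and 3.85 in deleted standard livers, 3.72, 3.66 and 3.75 in floxed DDC livers and 3.76, 3.83 and 3.90 in floxed standard livers, with a genotype difference on DDC of 0.00, SE 0.10, limma adjusted p = 1.00. One of its strongest regions lay 21.5 kb ahead and had fold enrichments of 16.3, 20.1 and 18.9 in deleted DDC livers, 16.2, 18.4 and 19.7 in deleted standard livers, 17, 21.6 and 20.8 in floxed DDC livers and 18.1, 18.6 and 19.4 in floxed standard livers, which overlap between groups.

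The fold enrichments of the 2 regions closest to Alb lay apart between the genotypes in opposite directions, a pair singled out after its values were seen. How many other regions separate the genotypes in this way was not counted, so the separation is a description. At 10.8 kb ahead of Alb the fold enrichments were 14.4, 18.3 and 14.3 in deleted DDC livers, 16.1, 18 and 15.6 in deleted standard livers, 12, 11.6 and 11.5 in floxed DDC livers and 12.8, 11.6 and 13.4 in floxed standard livers. All 6 deleted livers lay above all 6 floxed livers. At 12.9 kb ahead of Alb they were 10.7, 8.29 and 12.6 in deleted DDC livers, 11.7, 10.3 and 10.7 in deleted standard livers, 13.8, 16.6 and 16.2 in floxed DDC livers and 14.4, 14.7 and 15.7 in floxed standard livers. There all 6 deleted livers lay below all 6 floxed livers. In the rank-mapped values, deleted DDC minus floxed DDC livers gave 0.54, SE 0.14, limma adjusted p = 0.731 for the nearer region and -0.50, SE 0.18, limma adjusted p = 0.786 for the farther one, so neither was called over all regions. In those values the nearer region still separated the 6 deleted from the 6 floxed livers, and the farther one did not. Deleted standard minus floxed standard livers gave 0.54 and -0.29. The deleted livers carry the Alb-Cre transgene, whose own albumin sequence the sources used here do not give, so transgene and FBXL5 loss cannot be told apart at this locus.

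**Figure D4:**
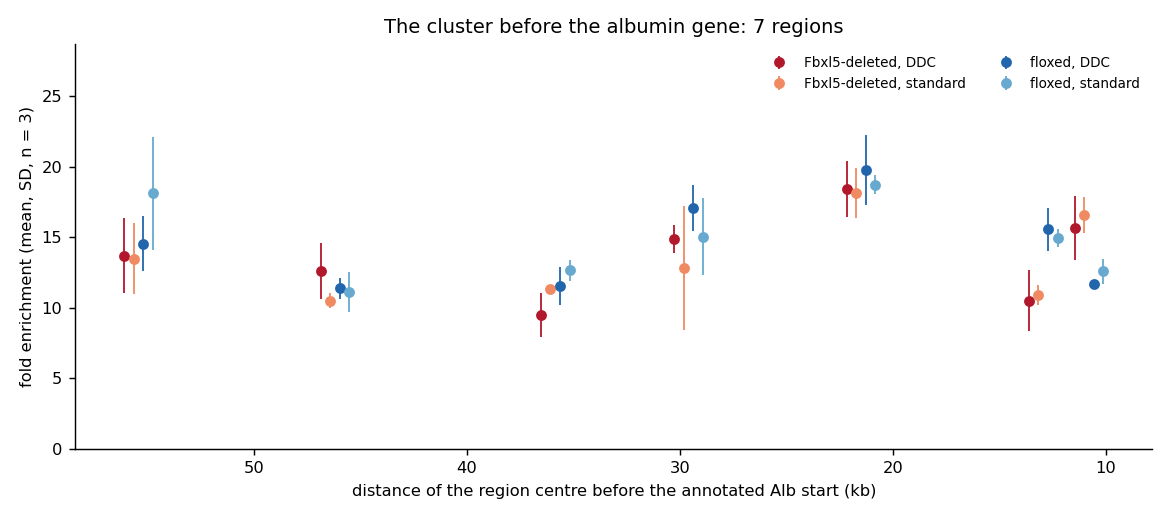
Fold enrichment (y, linear, mean and SD of 3 livers) of the 7 regions before albumin against the distance of each region's centre ahead of the annotated Alb start in kb (x), for deleted DDC, deleted standard, floxed DDC and floxed standard livers. The regions at 12.9 and 10.8 kb, picked after their values were seen and not called by limma, separate the genotypes in opposite directions.

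Some single regions inside the clusters were called between the diets in deleted livers. Of 1046 tested regions, 669 were regions that built the clusters and 377 were others within the spans, called weaker because they had not met the threshold in floxed standard livers. Among the 669, limma called 3 higher and 11 lower on DDC (0.448% and 1.64%), where 2.59% of all 126433 regions were called higher and 0.672% lower, and 1.59% and 1.08% of strong regions outside the clusters. Among the weaker 377, 5 were called higher and 2 lower (1.33% and 0.531%), both smaller shares than over all regions. The 21 regions lay in 20 clusters. Between deleted DDC and floxed DDC livers, limma called 0 of 1046, where 0.0% of all regions were called, the lowest adjusted p was 0.731 and 40 had an unadjusted p under 0.05. Read against these shares, rises were a smaller part of the 669 than of either background, and falls a larger one. Only 3 and 11 calls lie behind them, and the difference was not tested. The 669 were chosen for strength on the standard diet, which may favour falls on DDC. Strong regions outside the clusters share that choice and the set of all regions does not, so nothing about the clusters is drawn from these shares. Without deleted standard livers 1 and 3 the 21 calls came to 3, and they came to 7, 6 and 4 without deleted DDC liver 1, 2 or 3 and to 10 without deleted standard liver 1 or 3. The split also depends on the scale: fold enrichments not replaced by ranks, which move the median of all regions by 0.19 in place of 0.03, gave 12 higher and 0 lower, and all deposited peaks gave 3 higher and 18 lower. No call changed sign without ranks.

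The largest fall was in Tnk2, a tyrosine kinase gene beside the transferrin receptor gene Tfrc. The region (chr16:32651363-32651944) had values of 1.73, 2.70 and 1.27 in deleted DDC livers, 3.03, 3.80 and 2.85 in deleted standard livers, 1.85, 1.27 and 1.91 in floxed DDC livers and 3.25, 3.72 and 3.37 in floxed standard livers, and limma gave a difference of -1.33, SE 0.35, limma adjusted p = 0.0393. All standard livers lay above all DDC livers, and 1 deleted DDC and 1 floxed DDC liver had no kept peak. Near Cdk19, 2 regions of 1 cluster on chromosome 10 moved in opposite directions. The one that built the cluster (chr10:40519326-40519927) had 3.02, 2.15 and 2.52 in deleted DDC livers, 3.89, 3.20 and 3.84 in deleted standard livers, 2.82, 2.46 and 3.16 in floxed DDC livers and 3.37, 3.69 and 3.59 in floxed standard livers, a difference of -1.08, SE 0.25, limma adjusted p = 0.0219. The weaker (chr10:40510633-40511815) had 3.52, 3.43 and 3.30 in deleted DDC livers, 2.57, 2.23 and 2.99 in deleted standard livers, 3.68, 3.57 and 3.74 in floxed DDC livers and 2.58, 2.99 and 2.83 in floxed standard livers, a difference of 0.81, SE 0.19, limma adjusted p = 0.0245. In the region that built the cluster, deleted DDC and deleted standard livers did not overlap, and in the weaker both DDC groups lay above both standard groups.

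Gas6, whose product is a secreted ligand of the TAM receptor kinases, gave the one promoter among the called regions. Its values (chr8:13493828-13494704) were 2.97, 2.93 and 3.26 in deleted DDC livers, 4.03, 3.76 and 3.77 in deleted standard livers, 2.91, 3.10 and 3.35 in floxed DDC livers and 3.52, 3.43 and 3.53 in floxed standard livers, a difference of -0.80, SE 0.18, limma adjusted p = 0.0140. All DDC livers lay below all standard livers, and deleted standard livers were the highest of the 4 groups. The 250 bases before the start, on the minus strand in RefSeq GRCm38.p6, are printed because the region that fell covers part of them. Capitals mark 3 matches to GGGCGGGG, read here on the other strand.
Gas6, chr8:13494536-13494785, minus strand: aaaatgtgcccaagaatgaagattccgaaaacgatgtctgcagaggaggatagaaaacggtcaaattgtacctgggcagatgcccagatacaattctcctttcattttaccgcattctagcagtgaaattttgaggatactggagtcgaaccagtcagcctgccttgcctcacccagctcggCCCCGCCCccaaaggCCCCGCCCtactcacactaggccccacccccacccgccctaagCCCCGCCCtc

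Other falls lay in Capn2, a subunit of calpain proteases, in Adam11, near Fgd2, near Gm826, in the Olfml2b cluster and near Atoh8, with differences of -0.71, -0.88, -0.84, -0.83, -0.70 and -0.55 and limma adjusted p of 0.0451, 0.0189, 0.0324, 0.0353, 0.0394 and 0.0228. A region 26332 bp from Fabp1, the liver fatty acid binding protein, in the cluster near Thnsl2, had 4.04, 3.90 and 3.86 in deleted DDC livers, 4.33, 4.47 and 4.47 in deleted standard livers, 3.58, 3.78 and 3.96 in floxed DDC livers and 4.32, 4.20 and 4.53 in floxed standard livers. The difference there was -0.49, SE 0.12, limma adjusted p = 0.0334, and all DDC livers lay below all standard livers. A region with no gene within 50 kb (chr11:20462003-20462714) fell by 0.61, with a limma adjusted p of 0.0268. Its difference was 0.34 where a peak had to cover 50% of a region. Among weaker regions, 1 in Mical3 and 1 in the Azin2 cluster fell by 1.14 and 1.03, with limma adjusted p of 0.0285 and 0.0353. In deleted DDC livers the region in Mical3 was kept in 2 libraries and that of the Azin2 cluster in 1. The other libraries of that group took the value 1.27, so both sizes depend on it.

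Among the regions that rose, the 3 that built clusters lay in Sec16a, in Mfsd13a and on chromosome 6 far from any gene. In Sec16a (chr2:26422854-26423861) the values were 3.42, 3.58 and 3.37 in deleted DDC livers, 2.86, 2.92 and 2.27 in deleted standard livers, 3.64, 3.33 and 3.76 in floxed DDC livers and 3.10, 3.11 and 3.16 in floxed standard livers, a difference of 0.77, SE 0.20, limma adjusted p = 0.0364. Both DDC groups lay above both standard groups. Mfsd13a and the region on chromosome 6 rose by 0.46 and 0.58, with limma adjusted p of 0.0434 and 0.0245. The chromosome 6 region differed by 0.00 between floxed DDC and floxed standard livers.

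Weaker regions gave the largest rises, which their choice may favour, since they had missed the threshold in floxed standard livers. One near Slc25a30, a mitochondrial carrier gene, had 2.66, 2.46 and 2.85 in deleted DDC livers, 1.27, 1.27 and 1.42 in deleted standard livers, 3.14, 2.51 and 3.02 in floxed DDC livers and 1.54, 1.27 and 2.06 in floxed standard livers, a difference of 1.34, SE 0.26, limma adjusted p = 0.00576. It was kept in all 6 DDC libraries, in 1 of 3 deleted standard and in 2 of 3 floxed standard libraries. So it passed the filter through the DDC libraries, and deleted standard livers 1 and 2 took the fill value of 1.27. The size and p of this rise depend on that value. In Dnph1, a nucleotide hydrolase gene within the Cul9 cluster, a region was kept in all 6 DDC libraries and in 0 of 6 standard libraries. It is counted among the calls, but it passed the filter only through the DDC libraries and its standard values are all the fill value, so no size or p is given. Regions in the clusters near Cdk19 and at Gnpda1 rose by 0.81 and 0.88, with limma adjusted p of 0.0245 and 0.0280. Macrophage marker promoters had peaks at 1 to 2 of 4 in DDC livers and at 0 to 1 in standard livers. Stellate marker promoters with a peak of fold enrichment 8 or more numbered 0 to 1 of 4 in deleted DDC and 1 to 2 in deleted standard livers. In floxed DDC and floxed standard livers they numbered 2 in every library. The part of both in these differences was not tested.

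Floxed livers on the same diets, which share no library with the deleted ones, were read as a description. Their diet difference had the same sign for 10 of the 11 falls of cluster regions, the exception being near Atoh8 (0.12), for the 3 rises, and for the 2 falls and 5 rises of weaker regions. The floxed standard livers decided which regions built the clusters, which favours falls on DDC among those that did and rises among the weaker ones that did not, so the shared signs support nothing.

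**Figure D5:**
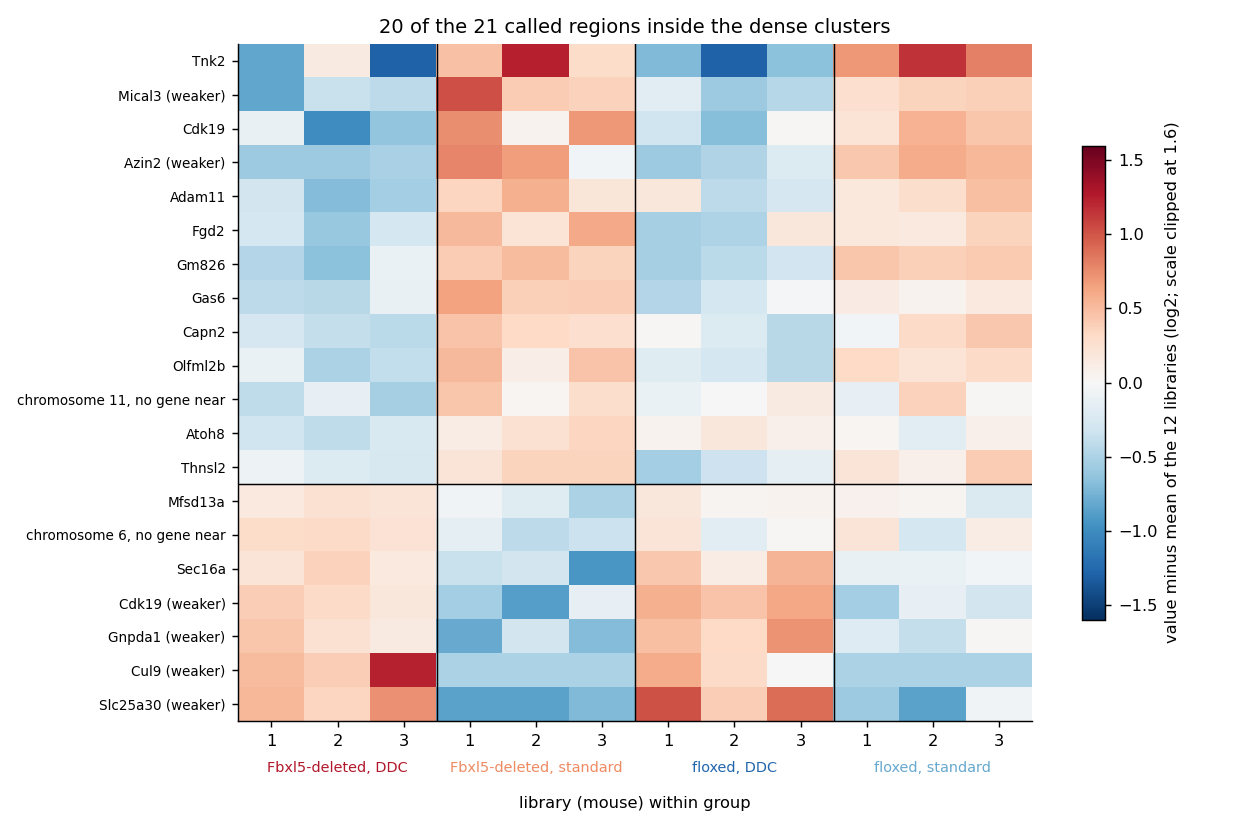
Values of 20 of the 21 called regions (y, named by cluster, weaker regions marked) in 12 libraries (x) as the difference from the mean of the 12 on the log2 scale (colour), with falls above the horizontal line and rises below it. Floxed DDC and floxed standard livers, not compared by a test, show the same colours as the deleted pair in most lines.

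In deleted livers, but not in floxed livers, promoter regions of members had a larger diet difference than other member regions, without a test. In deleted livers the median diet difference was -0.14 over 127 member promoters, 100 of them below 0, and -0.07 over 516 other member regions, 311 below 0. Outside the clusters the medians were -0.11 at promoters and -0.03 elsewhere, with 4692 of 6351 and 10655 of 19708 regions below 0. Floxed DDC minus floxed standard livers had medians of -0.066 at member promoters and -0.074 at other member regions. Outside the clusters these were -0.049 and -0.078. Deleted standard minus floxed standard livers gave 0.09 and 0.01 inside the clusters. The promoter medians of deleted standard livers 1 and 3 were 3.86 and 3.80, and that of liver 2 was 3.73. In deleted DDC livers they were 3.68, 3.61 and 3.72. So livers 1 and 3, which stand apart, move with this difference, and their part in it was not tested.

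Regions of 1 cluster differed widely in value. The SD of region values within a cluster had a median of 0.373, and the highest and lowest region were 0.963 apart in the median cluster. The SD between the 3 livers of a group had a median of 0.073 per cluster. In 23 of 68 clusters with a promoter region, a promoter was the highest region. Fbxl5 itself was in no dense cluster: the region over the higher-coordinate edge of the gene (chr5:43781402-43782725) stood alone in its unit, 10705 kb from the nearest member, with fold enrichments of 8.31 to 10.9 over the 12 libraries. Accessibility there does not check the deletion.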

How the data were processed

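ATAC-seq peaks of hepatocytes from 12 mice, 3 in each of 4 groups, were used as 1 list per mouse. Per the submitters' processing notes, MACS2, Bowtie2, fastp, Picard, SAMtools, deepTools and bedtools were used with the mm10 build; the sources used here do not give their order, settings or peak threshold. The deposited columns are a score, a fold enrichment (a ratio over local background), and −log10 p and q values per peak, made by the authors for each list; the score was not used. Lists without read counts give no depth, so no counting error could be computed. The number of peaks per list moves with depth and background, which is why ranks were used.

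Lines with equal coordinates were joined. Peaks on the 19 autosomes and X were kept. Clusters and genes were matched to the RefSeq table of GRCm38.p6, and a cluster was named by the protein-coding gene with the longest overlap, otherwise the nearest within 50 kb. The promoter table used here has no windows for chromosome 18, so promoter counts leave that chromosome out. The 137004 strongest peaks per list were ranked, and each rank took the mean log2 fold enrichment of that rank over the 12 lists. Unit values (20880 units) and region values (126433 of 292589 merged regions, kept in at least 3 of 9 libraries) were fitted with limma 3.58.1 in R 4.3.3 with 3 group means, moderated with trend and robust settings, two-sided, with Benjamini-Hochberg adjustment over each whole table and a call at an adjusted p under 0.05. Tests used the 9 libraries that did not choose the clusters. The fit was also run on simulated data built on the means and spreads of these libraries, with an outcome not reported here.

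Named items were the 12 clusters with most regions, clusters and regions called (up to 8 per direction), up to 3 genes per list, Fbxl5, and units at the edge of the rule; other regions named were chosen after their values were seen. Some items that the rule would name are not reported here. The clusters and gene lists were chosen with earlier results of these data known. Each library is from its own mouse, per the labels. Alternatives in strength, stitching distance, scale, overlap, filter and libraries were tried.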

Additional observations from a re-analysis of the deposited data

How the results depend on the processing

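The number of clusters, 121, was 660 at a fold enrichment of at least 6 and 18 at 10, 1 with stitching under 5 kb and 527 under 20 kb, 399 with 4 or more regions and 5 with 8 or more, and 12 with equal numbers of strongest peaks. Without 1 floxed standard liver it was 167 to 214, the highest without liver 1. The 0 of 121 clusters called between the diets in deleted livers became 1 lower (chromosome 11, no gene within 50 kb) with medians over regions and 4 with units of 3 or more regions. The 21 called regions became 11 with ordinary limma moderation, 12 (12 higher, 0 lower) with fold enrichments not replaced by ranks, 4 (2 higher, 2 lower) with peaks covering 50% of a region, and 3 without deleted standard livers 1 and 3; leaving out 1 library gave 4 to 18, lowest without deleted DDC liver 3. The cause was not tested. All deposited peaks also gave 21, 3 higher and 18 lower, of which 14 were among the original calls. Between the genotypes on DDC, 1 region was called with 50% coverage. The region on chromosome 11 had a difference of 0.34 with 50% coverage. The median shift of clusters between floxed DDC and floxed standard livers, -0.09, was 0.011 without ranks and -0.10 to -0.07 leaving out 1 liver. That between deleted standard and floxed standard livers, 0.02, was -0.15 without ranks and 0.014 to 0.032 leaving out 1 liver. Regions listed per library, 100%, were 99.97% with equal numbers of peaks and 95.3% with 50% coverage. Replicate numbers were not treated as pairs in the main fit. Same-number correlations of deviations were -0.02 to 0.13 (median 0.03), and different-number ones -0.11 to 0.08 (median -0.02). Whether mice of 1 replicate number share a batch was not tested. With the replicate block 0 clusters and 25 regions were called. Depth is unknown, and 3 mice per group limit what can be called.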
